A study of Mus musculus with 2 samples.

Results

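The 10 genes described here encode the MHC class II antigen presentation pathway of the mouse, namely H2-Aa, H2-Ab1, H2-Eb1, Cd74, H2-DMa, H2-DMb1, H2-DMb2, H2-Oa, H2-Ob and Ciita. They were chosen by symbol and not by their values out of 32589 genes measured, though with earlier results of these data known. Single-cell RNA-Seq was performed on tumor-bearing livers from shYT mice, 1 library given PBS and 1 given the anti–PD-1 antibody clone RMP1-14, to see how the immune microenvironment differs when checkpoint blockade is added to YAP/TAZ depletion. Intrahepatic cholangiocarcinoma (CCA) had been induced in both by hydrodynamic tail vein injection of plasmids for an activated Notch receptor (NICD) and a membrane-bound, active AKT (myr-AKT). Both groups also carried inducible shRNAs against YAP and TAZ, driven in all tissues through CAG-rtTA3 and switched on at day 25. The antibody was injected at days 26, 29 and 32, and livers were taken at day 33. The labels do not say which shYT line, how many animals, or which strain, age or sex each library holds. The study gives several replicates per group for this experiment and left out hashtag labelling, so a library may pool animals, and its cells are not assigned to animals here. Both groups are YAP/TAZ depleted, so the depletion itself was not compared.

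MHC class II molecules display peptides from ingested or endosomal proteins to CD4+ T cells. An α and a β chain pair in the endoplasmic reticulum on the invariant chain CD74, which fills the peptide groove and steers the complex to endosomes. There proteases cut CD74 down to a short remnant, the chaperone H2-M (H2-DM) exchanges the remnant for antigenic peptide, and H2-O (DO) holds H2-M back. Dendritic cells, B cells and macrophages are the usual presenters, and other cells, epithelium included, can make class II after exposure to interferon-γ. Ciita encodes the transactivator that turns the whole set on. It binds no DNA itself and is held at X and Y box elements of the class II promoters by the RFX, CREB and NF-Y proteins.

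H2-Aa encodes the α chain and H2-Ab1 the β chain of I-A, H2-Eb1 encodes the β chain of I-E, and these lie close together on chromosome 17 (GRCm38, GENCODE vM21). H2-Ab1 (ENSMUSG00000073421) spans 34257689 to 34269419 on the forward strand, H2-Aa (ENSMUSG00000036594) spans 34282744 to 34287823 on the reverse strand, and H2-Eb1 (ENSMUSG00000060586) spans 34305867 to 34316674 on the forward strand. In the same region H2-DMa starts at 34119541, H2-DMb2 at 34143307 and H2-DMb1 at 34153072, while the chains of the DM inhibitor, H2-Oa and H2-Ob, start at 34092340 and 34238903. Ciita lies on chromosome 16 from 10480059 to 10528418. In the annotation H2-Eb1, H2-DMa, H2-Oa and Ciita overlap genes on the opposite strand (Gm20513, Brd2 and others, BC051537 and Dexi). Whether counting used the strand is not stated, so reads of these genes cannot be told apart from those of their antisense partners.

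Promoter sequences show what most of these genes share beyond their function. RefSeq promoters (GRCm38.p6, from 250 bases before to 50 after the start) were found for 7 of the 10 genes, in 8 entries, H2-DMa having more than 1. The core of the X box was searched as AACNNATG and the Y box, an inverted CCAAT element, as TGATTGG, on both strands. The letters were chosen after these promoters had been looked at, and the matches do not overlap. The Y box letters were in the promoters of 6 genes and the X box letters in 4, while 7.82% and 8.86% of 32851 mouse promoters hold them. In those 4 genes both occurred in 1 order, the X box first, with 18 to 21 bases between them. That arrangement, with at most 30 bases between, was in 34 promoters (0.103%) of all. The stretches around the motifs are printed on the gene's own strand with the matched letters in capitals. Of the letters searched, H2-Oa and H2-Aa hold those of the Y box only, and the H2-DMa entries hold neither. Elements spelled otherwise would be missed, so the lack of a match does not show that a promoter lacks the element.
H2-DMb1 (chr17:34153084-34153146, forward): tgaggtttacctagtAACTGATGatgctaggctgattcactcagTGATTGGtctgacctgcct
H2-DMb2 (chr17:34145113-34145175, forward): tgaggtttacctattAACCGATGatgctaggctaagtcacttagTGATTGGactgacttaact
H2-Eb1 (chr17:34305763-34305824, forward): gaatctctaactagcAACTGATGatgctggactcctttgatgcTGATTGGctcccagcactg
H2-Ob (chr17:34238805-34238864, forward): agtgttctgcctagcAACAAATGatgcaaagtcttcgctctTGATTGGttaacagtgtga
H2-Oa (chr17:34092292-34092352, forward): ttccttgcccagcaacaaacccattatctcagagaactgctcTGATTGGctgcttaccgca
H2-Aa (chr17:34287855-34287915, reverse): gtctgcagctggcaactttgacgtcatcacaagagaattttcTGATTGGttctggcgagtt

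The PBS library held 19397 cell barcodes and 121713441 UMIs (unique molecular identifiers, each marking 1 captured transcript), and the anti–PD-1 library 19451 and 100807037. After cells were limited to 500 to 5000 detected genes and to a mitochondrial share of 10%, 15531 and 16360 were kept, with median depths of 3159 and 2990 UMIs, and the libraries shared 145 barcodes among kept cells. A cell was assigned to the class of which it carried at least 3 of 8 marker genes, and more than of any other class. The gate assigned 13810 and 14156 cells, and 15 classes with at least 50 cells in both libraries are described. Every class had UMIs of all 8 of its own markers in both libraries, and no member is a marker. Class names mean cells that pass a gate, in the sense of "T cell-like". The tumor cell class also holds biliary epithelium, and cells with at least 3 Kupffer markers and a Clec4f UMI were taken as Kupffer cells before macrophages or monocytes. UMIs of the female-specific transcript Xist numbered 18452 with PBS and 11 with anti–PD-1, and those of Y-linked genes 3113 and 15323, so sex and treatment cannot be told apart. The PBS library thus held transcripts of both sexes, and the anti–PD-1 library almost none of Xist. Comparisons of cells with a Y-linked UMI but none of Xist leave out the PBS cells with Xist. In both libraries they also leave out cells without a Y-linked UMI. With 1 library per group there is no replicate and no test. All intervals (95%) take in counting error alone.

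Class II levels were given as counts per 1000000 UMIs of a class (CPM), with exact Poisson intervals. H2-Aa was highest in conventional dendritic cells, at 13648 CPM (13515 to 13782) in PBS cDC2 and 10671 (10467 to 10878) in PBS cDC1. Mature dendritic cells followed at 8329, macrophages at 5278, B cells at 4231 and pDCs (plasmacytoid dendritic cells) at 2805. PBS monocytes held 1498, Kupffer cells 1312, neutrophils 844 and tumor cells 379. In T cells, which should lack class II, H2-Aa stood at 322 CPM, in fibroblasts at 292, in NK cells at 274, in endothelial cells at 261 and in plasma cells at 211. The intervals of neighbours overlapped from T cells to fibroblasts, NK cells and endothelial cells, and nowhere else in this order. In the anti–PD-1 library the first 5 classes kept their places, with H2-Aa at 11799.8 CPM in cDC2, 9461 in cDC1, 7741 in mature dendritic cells, 6157 in macrophages and 5232 in B cells. Kupffer cells (3085), monocytes (3016) and pDCs (2904) came next with overlapping intervals. Neutrophils (1726), tumor cells (1104), endothelial cells (606), T cells (505), NK cells (431), fibroblasts (339) and plasma cells (275) completed the order, of which only the last pair overlapped. H2-Ab1, H2-Eb1 and Cd74 likewise had their highest levels in cDC2 and cDC1 of both libraries.

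**Figure D1:**
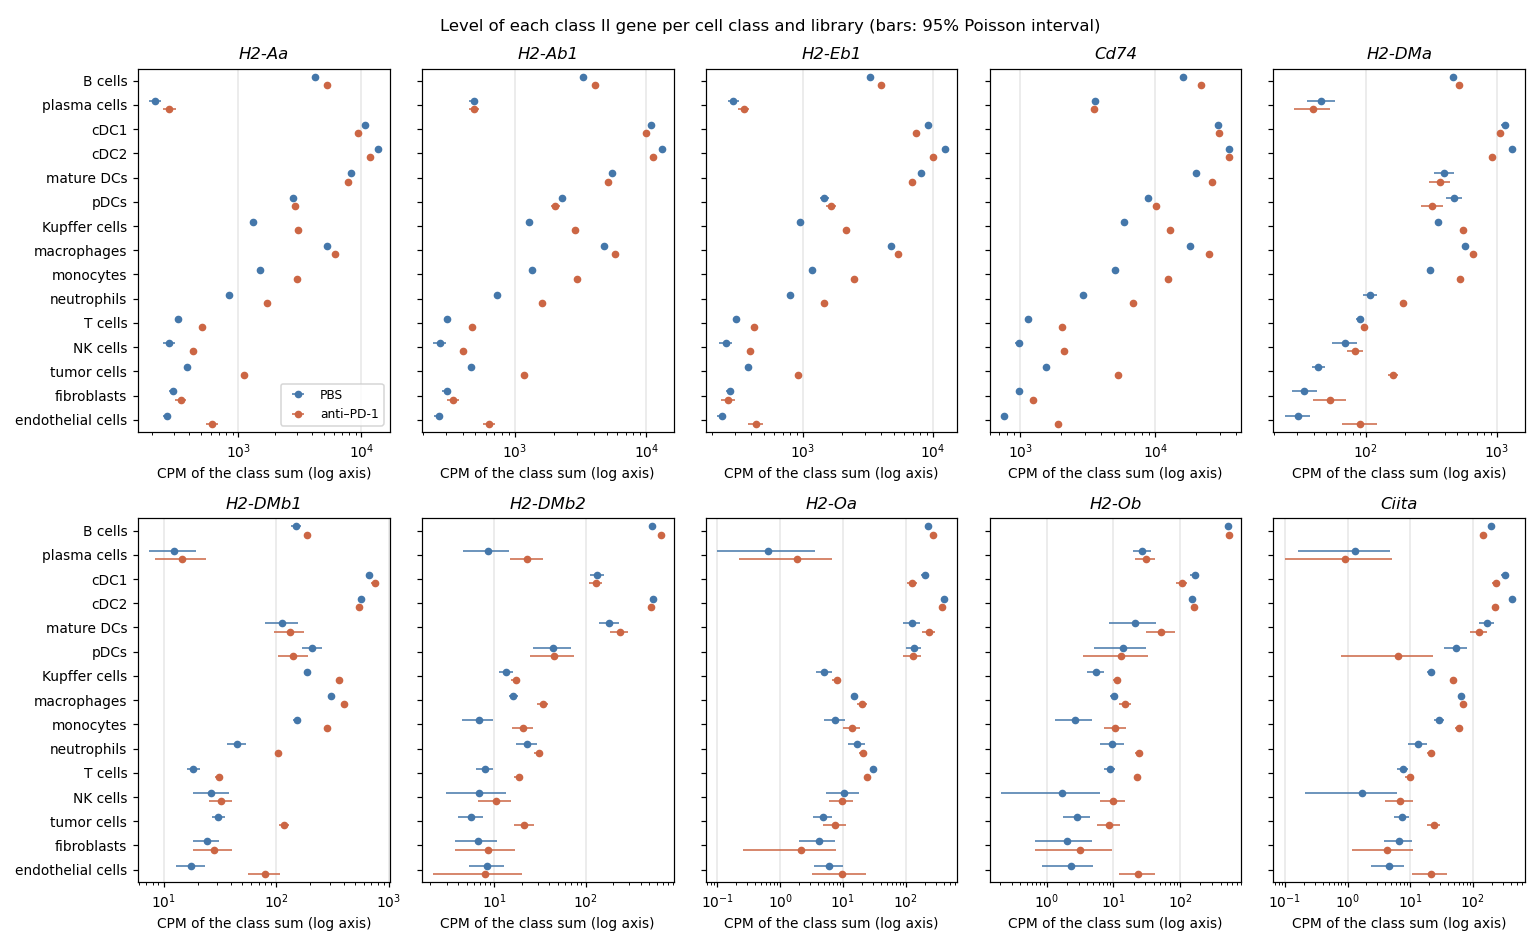
CPM of each of the 10 class II genes (log axis, 1 panel per gene) in 15 cell classes of the PBS (blue) and anti–PD-1 (orange) libraries, 1 library each, with 95% Poisson intervals. H2-Aa reaches 13648 CPM in PBS cDC2 and 1312 in PBS Kupffer cells, and the Kupffer cell, monocyte and tumor cell points of the anti–PD-1 library lie to the right of those of the PBS library for most genes.

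Whether the class II genes differed between the libraries depended on the cell class. A gene was called at an at least 2-fold difference of CPM + 5, that is a log2 ratio (anti–PD-1 over PBS) of at least 1 in size, among genes with at least 20 UMIs over both libraries. In tumor cells 8 of 10 class II genes were at least 2-fold higher with anti–PD-1, against 3.03% of the 13213 genes tested. In monocytes this held for 6 of 10 (3.08% of all genes), in endothelial cells for 6 of 9 (3.43%), in Kupffer cells for 5 of 10 (1.67%) and in neutrophils for 4 of 10 (2.21%). NK cells had 2 of 9 (2.94%), T cells 1 of 10 (1.27%), plasma cells 1 of 8 (3.86%) and mature dendritic cells 1 of 10 (4.10%). Over the alternative settings the count ran from 0 to 5 in NK cells and from 0 to 6 in T cells, and with the T cell level taken off no class II UMIs were left in NK cells except 4.92 of H2-DMb1 with PBS. No class II gene was 2-fold higher in B cells (1.63%), cDC1 (4.43%), cDC2 (2.55%), pDCs (4.57%), macrophages (2.85%) or fibroblasts (3.17%, 8 class II genes tested). The only class II gene at least 2-fold lower was Ciita in pDCs, where 6.46% of genes were. The median log2 ratio of the class II genes ran from 1.33 in tumor cells, 1.25 in endothelial cells, 1.02 in monocytes and 0.96 in Kupffer cells to −0.15 in cDC1 and −0.16 in cDC2. Over all genes tested the median lay between −0.20 and 0.09 in every class. Median-ratio scaling sets each class to an all-gene median of 0, with the scale taken from UMI ratios before 5 CPM are added. It therefore moves the ratios up in every class except plasma cells, that of H2-Aa in cDC2 for example from −0.21 to 0.02.

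**Figure D2:**
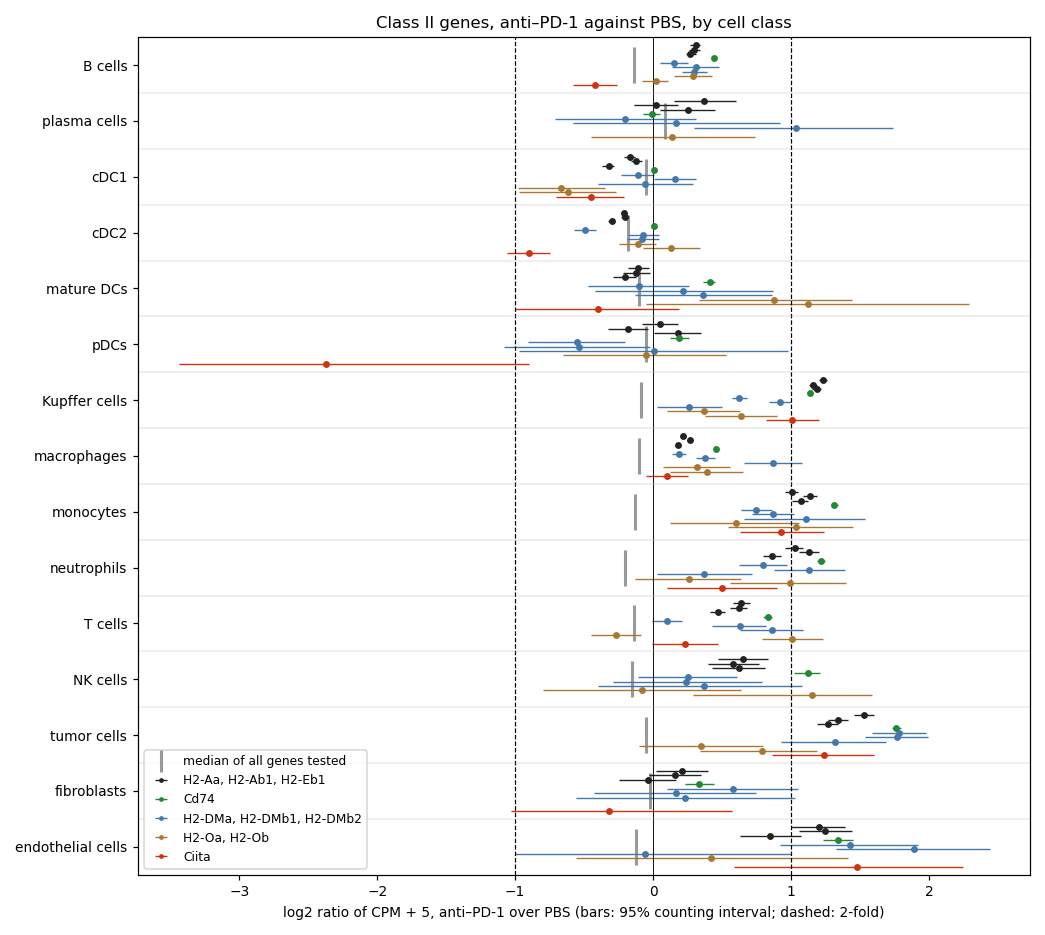
Log2 ratio of CPM + 5, anti–PD-1 over PBS, of the tested class II genes (points coloured by role, with 95% counting intervals) in each cell class, with the median of all genes tested as a grey bar and 2-fold differences dashed. Points of Kupffer cells, monocytes and tumor cells lie right of 0, while Ciita (red) lies left of 0 in B cells and in all 4 dendritic cell classes.

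Kupffer cells, the resident macrophages of the liver sinusoids, had more of all 10 class II genes with anti–PD-1, by similar factors for the chains, the invariant chain and the transactivator. H2-Aa stood at 1312 CPM with PBS and at 3085 with anti–PD-1, a log2 ratio of 1.23 (1.20 to 1.26). H2-Ab1 was 1288 and 2890.3 CPM (log2 1.16), H2-Eb1 944 and 2154 (1.19) and Cd74 5836 and 12902 (1.14). Ciita was 21.7 and 48.7 CPM with a log2 ratio of 1.01 (0.82 to 1.20) on 196 and 837 UMIs. The peptide exchange genes differed less. H2-DMb1, the β chain of H2-M, stood at 187 and 359 CPM (0.92, 0.84 to 1.00) and H2-DMa, its α chain, at 357 and 553 CPM (0.62, 0.57 to 0.68). H2-DMb2, H2-Oa and H2-Ob were at most 17.2 CPM here in either library, and with the T cell level taken off H2-DMb2 turned to −0.27, H2-Oa had no UMIs left, and H2-Ob kept 40.3% of its UMIs with PBS and none with anti–PD-1. The H2-Oa level of PBS T cells was itself above that of PBS NK cells, at 30.6 (27.5 to 34.0) against 10.3 (5.32 to 18.0) CPM. UMIs of the 10 genes per Kupffer cell were 90.7 in the PBS and 199 in the anti–PD-1 library, and the median cell held 49 and 120.

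Clec4f UMIs were also found in cells that should lack the gene, namely in 9.95% of PBS T cells and in 31.8% of those from the anti–PD-1 library. With a requirement of at least 5 Clec4f UMIs the ratio of H2-Aa was 1.24 (827 and 1378 cells), and in cells with all 8 Kupffer markers it was 1.48 (464 and 871 cells). Among Kupffer cells that carried a Y-linked UMI and none of Xist it was 1.44 (150 and 1160 cells), and after the T cell level of the same library was taken off it was 1.24. The number of class II genes at least 2-fold higher in Kupffer cells lay between 4 and 6 in the 15 alternatives.

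Macrophages without Clec4f, the larger class of the PBS library, showed much smaller differences. H2-Aa was 5278 CPM with PBS and 6157 with anti–PD-1 (0.22, 0.21 to 0.24), and Cd74 was 18195 and 25105 (0.46, 0.46 to 0.47). Per cell, where depth enters, H2-Aa was lower with anti–PD-1, with 42.8 and 38.9 UMIs at median depths of 7467 and 5005 UMIs. Cd74 was at 147 and 159 UMIs per macrophage. The 10 genes together were at 275 and 276, and the median macrophage held 123 and 109. Ciita was 63.7 and 68.8 CPM (0.10, −0.05 to 0.25), an interval that holds 0. The highest ratio was that of H2-DMb2, at 16.2 and 33.9 CPM (0.87, 0.66 to 1.08). Macrophages thus stood above Kupffer cells for the chains in both libraries, by 5278 against 1312 CPM of H2-Aa with PBS and by 6157 against 3085 with anti–PD-1. The class held 2834 and 929 cells, and the Kupffer class 994 and 1899. It takes in no cell with a Clec4f UMI, and such UMIs were in 9.95% of PBS and 31.8% of anti–PD-1 T cells. The gate may therefore have left out a larger part of the anti–PD-1 macrophages, and how large a part was not tested. When all cells were clustered without the class II genes, 1 macrophage cluster held 2838 PBS and 130 anti–PD-1 cells and another 99 and 1007, so the macrophages of the libraries were largely in different clusters. With macrophages and Kupffer cells taken as 1 class, H2-Aa was at −0.10 (−0.12 to −0.09) and Cd74 at 0.12 (0.12 to 0.13).

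Monocytes, the blood-derived precursors of many tissue macrophages, resembled Kupffer cells in their ratios. H2-Aa was 1498 CPM with PBS and 3016 with anti–PD-1 (1.01, 0.96 to 1.05), Cd74 was 5045 and 12522 (1.31, 1.29 to 1.34), and Ciita was 29.2 and 60.3 (0.93, 0.63 to 1.24). These sums rested on a minority of cells. The median monocyte held 7 class II UMIs with PBS and 37.0 with anti–PD-1, against means of 71.5 and 159, and the top 5% of cells held 51.2% and 33.1% of the UMIs. The share of monocytes with an H2-Aa UMI, after each cell was thinned to 1000 UMIs, was 26.2% (22.6 to 30.1) and 57.2% (52.2 to 62.2), against 15.2% and 24.3% of T cells. Unthinned, the monocyte shares were 54.1% and 84.7%, and thinning left out 6 and 3 monocytes. In the monocytes that carried a Y-linked UMI but none of Xist (52 and 238 cells) H2-Aa was at 0.71, Cd74 at 0.99 and no class II gene was 2-fold higher, against 6.91% of all genes. With the T cell level taken off, 3 of 8 did (3.04%).

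Neutrophils, which are not known for steady-state class II, had H2-Aa at 844 and 1726 CPM (1.03, 0.96 to 1.09) and Cd74 at 2946 and 6871 (1.22, 1.19 to 1.25). The median neutrophil held 2 class II UMIs with PBS and 6 with anti–PD-1, fewer than the 3 and 7 of the median T cell. Neutrophils were also shallower, with median depths of 1598 and 2136 UMIs against 2739 and 3655. At 1000 UMIs per cell the order turned, with H2-Aa in 22.3% and 34.5% of neutrophils against 15.2% and 24.3% of T cells. Thinning left out 124 and 163 neutrophils. The top 5% of neutrophils held 76.2% and 77.1% of the class II UMIs, and 27.7% and 43.8% of neutrophils carried at least 3 markers of a second, unrelated class. When all cells were clustered, neutrophils formed a cluster of 1230 PBS and 2138 anti–PD-1 cells, another of 62 and 860 and a small one of 12 and 85, so part of the anti–PD-1 class lay in clusters with few PBS cells. In the 945 and 1842 neutrophils free of a second marker panel, H2-Aa was at 0.49 (0.34 to 0.65), H2-Ab1 at 0.78, H2-Eb1 at 0.36 and Cd74 at 0.84 (0.76 to 0.92), and only H2-DMb1 (1.08, 0.51 to 1.63) was past 2-fold, 1 gene in place of 4 (2.91% of all genes in these cells). With the T cell level taken off all neutrophils, Cd74 kept 34.5% and 52.1% of its UMIs, at a ratio of 1.81. Of the 6 class II genes with enough UMIs left, 5 were at least 2-fold higher (6.60% of all genes) and H2-DMb2 was lower, at −1.29 on 24.1 and 7.82 UMIs left (15.2% of all genes).

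**Figure D3:**
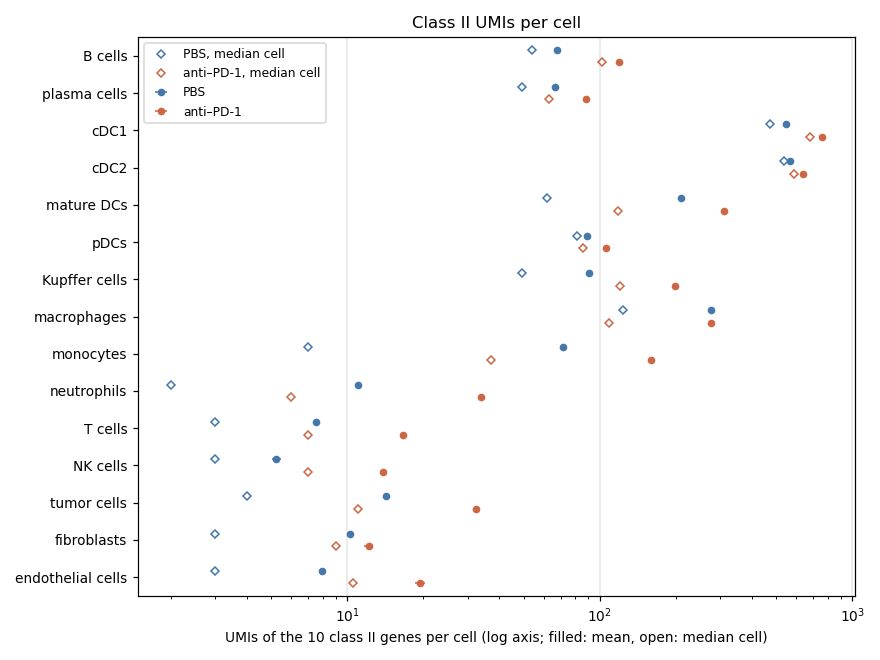
UMIs of the 10 class II genes per cell (log axis) in 15 classes, as the mean with 95% Poisson interval (filled) and the median cell (open), for the PBS (blue) and anti–PD-1 (orange) libraries. The median T cell holds 3 and 7 UMIs and the median tumor cell 4 and 11, while cDC2 means reach 568 and 638.

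In the dendritic cells, the class II level was high in both libraries and 2-fold differences were found only for H2-Ob in mature dendritic cells (1.12, −0.05 to 2.29, on 7 and 17 UMIs) and for Ciita in pDCs. In cDC2, the conventional type that presents mainly to CD4+ T cells, H2-Aa was 13648 and 11799.8 CPM (−0.21, −0.23 to −0.19), H2-Ab1 was 13096 and 11365 (−0.20), H2-Eb1 was 12444 and 10074 (−0.30) and Cd74 was 35354 and 35479 (0.01, −0.01 to 0.02). The all-gene median in cDC2 was −0.18, and with median-ratio scaling H2-Aa and H2-Ab1 turned to 0.02. H2-DMa was 1299 and 924 CPM (−0.49, −0.57 to −0.41). In cDC1, specialised in cross-presentation to CD8+ T cells, H2-Aa was at −0.17, H2-Eb1 at −0.32 and Cd74 at 0.01. Per cell, where depth enters, all 3 were higher with anti–PD-1, with 92.4 and 122 H2-Aa UMIs, 79.7 and 94.7 H2-Eb1 UMIs and 255 and 382 Cd74 UMIs in each cDC1, at median depths of 8307 and 12693 UMIs. Mature dendritic cells, a migratory state with Ccr7, had Cd74 at 19955 and 26476 CPM (0.41, 0.36 to 0.45) and H2-Aa at 8329 and 7741 (−0.11, −0.18 to −0.03). The sign of this small H2-Aa ratio turned with median-ratio scaling, with equal weighting of cells and with the removal of mixed barcodes. B cells had H2-Aa at 4231 and 5232 CPM (0.31, 0.27 to 0.34) and Cd74 at 16167 and 21979 (0.44, 0.43 to 0.46), although in the 119 and 835 B cells that carried a Y-linked UMI but none of Xist H2-Aa was at −0.03.

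Relative to all UMIs, Ciita was lower with anti–PD-1 in B cells and dendritic cells, whether or not the chains were. In cDC2 it was 425 CPM with PBS and 226 with anti–PD-1, a log2 ratio of −0.90 (−1.06 to −0.75) on 1256 and 441 UMIs, and among cDC2 with a Y-linked UMI but none of Xist it was at −0.31 (−0.63 to 0.02). In cDC1 it was 321 and 233 CPM (−0.45, −0.70 to −0.21), in B cells 193 and 143 (−0.42, −0.58 to −0.26) and in mature dendritic cells 167 and 126 (−0.40), where the interval holds 0. In pDCs it was 53.9 and 6.43 CPM on only 23 and 2 UMIs (−2.37, −3.44 to −0.90). In the 60 and 34 pDCs free of a second marker panel it was at −1.57 (−3.04 to 0.17) on fewer than 20 UMIs. Per cell, where the depth of the cells enters, the Ciita difference was found in cDC2, with 3.10 (2.93 to 3.28) and 2.01 (1.83 to 2.21) UMIs, and in pDCs, with 0.291 and 0.0392. B cells held 0.450 and 0.453 Ciita UMIs each, mature dendritic cells 0.821 and 0.820 and cDC1 2.78 and 3.00, with overlapping intervals. In Kupffer cells, monocytes and tumor cells Ciita was higher, at 1.01, 0.93 and 1.24, and in endothelial cells at 1.48 (0.59 to 2.25) on only 12 and 11 UMIs. In neutrophils it was at 0.50 (0.10 to 0.90) on 35 and 195 UMIs, and at 0.09 (−0.58 to 0.72) with mixed barcodes left out. No interaction could be tested with 1 library per group.

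Tumor cells had the highest median ratio. H2-Aa was 379 CPM (365 to 394) with PBS and 1104 (1066 to 1142) with anti–PD-1, a log2 ratio of 1.53 (1.46 to 1.60). H2-Ab1 was 462 and 1179 CPM (1.34), H2-Eb1 was 379 and 919.8 (1.27) and Cd74 was 1552 and 5273 (1.76, 1.73 to 1.80). H2-DMa was 43.3 and 161 CPM (1.78, 1.59 to 1.98), H2-DMb1 was 30.7 and 117 (1.77, 1.54 to 1.99), and Ciita was 7.29 and 24.1 on 51 and 73 UMIs (1.24, 0.86 to 1.60). H2-Oa was at 0.35, with an interval that holds 0, and H2-Ob at 0.79.

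These tumor cell levels were low, and with PBS they lay close to those of cells that should make no class II. The 10 genes summed to 2868 CPM in PBS and 8815 in anti–PD-1 tumor cells, against 2236 and 3639 in T cells. The mean tumor cell held 14.3 class II UMIs with PBS and 32.4 with anti–PD-1, and the mean T cell 7.53 and 16.6. The top 5% of tumor cells held 69.1% and 54.3% of the UMIs, and the top 5% of T cells 57.3% and 53.9%. At least 3 markers of a second, unrelated class were carried by 24.4% and 48.4% of T cells. The T cell level taken off in an alternative is that of the mean T cell, so it holds the UMIs of such cells too. At 1000 UMIs per cell, H2-Aa was found in 17.6% (15.5 to 19.9) of PBS tumor cells and 15.2% (14.0 to 16.5) of PBS T cells, so the intervals overlapped. Those of H2-Eb1 overlapped too. With separate intervals, PBS tumor cells had larger shares of H2-Ab1 (24.1% against 15.4%) and Cd74 (49.3% against 42.3%). Their shares of H2-DMa (3.69% against 6.79%) and H2-Oa (0.574% against 2.97%) were smaller. With anti–PD-1 the H2-Aa shares were 44.8% (41.0 to 48.7) and 24.3% (22.9 to 25.7). Unthinned, they were 37.5% and 34.3% with PBS, at median depths of 2424 and 2739 UMIs, and 65.7% and 58.0% with anti–PD-1, at 1611 and 3655. Thinning left out 178 PBS and 167 anti–PD-1 tumor cells, and 37 and 36 T cells. Leukocyte transcripts moved with the result. The genes Ptprc, Tyrobp, Laptm5, Fcer1g, Lyz2 and Coro1a, which epithelium does not usually express, summed to 1149 CPM in PBS and 2494 in anti–PD-1 tumor cells, with no UMI in 18.1% and 9.58% of cells.

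In the 253 and 79 tumor cells without any UMI of these 6 genes, the difference in CPM of the chains and of Cd74 was no smaller. H2-Aa was 134 CPM (108 to 165) and 674 (538 to 833), a log2 ratio of 2.28 (1.85 to 2.72), H2-Ab1 was 257 and 801 CPM (1.62) and Cd74 was 701 and 3979 CPM (2.50, 2.31 to 2.68). H2-DMa rested there on 17 and 7 UMIs (0.99, −0.32 to 2.18), and 5 of the 6 genes tested were at least 2-fold higher (6.05% of all genes). These cells held 3.62 and 9.84 class II UMIs each, fewer than the mean T cell of the same library. In CPM they held 1365 and 6159, below the T cells with PBS and above them with anti–PD-1. The anti–PD-1 cells of this subset were shallower, so the differences per cell are smaller than those in CPM. Per cell, H2-Aa was at 0.356 and 1.08 UMIs here. Over all tumor cells it was 2.14-fold higher per cell with anti–PD-1, against 2.12-fold in T cells. In the 1061 and 537 tumor cells free of a second marker panel H2-Aa was at 2.23 (2.08 to 2.39), and in the 81 and 258 that carried a Y-linked UMI but none of Xist it was at 2.08 (1.86 to 2.31). With the T cell level taken off all tumor cells, H2-Aa kept 42.8% and 43.3% of its UMIs and Cd74 50.6% and 52.2%, with ratios of 1.53 and 1.80, while H2-DMa had no UMIs left in the PBS library. The mean PBS T cell held 0.302 (0.284 to 0.321) H2-DMa UMIs, against 0.193 (0.153 to 0.240) in NK cells. For this gene the level taken off may therefore exceed that of free RNA. How far free RNA and mixed barcodes make up the tumor cell values was not tested beyond these subsets.

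**Figure D4:**
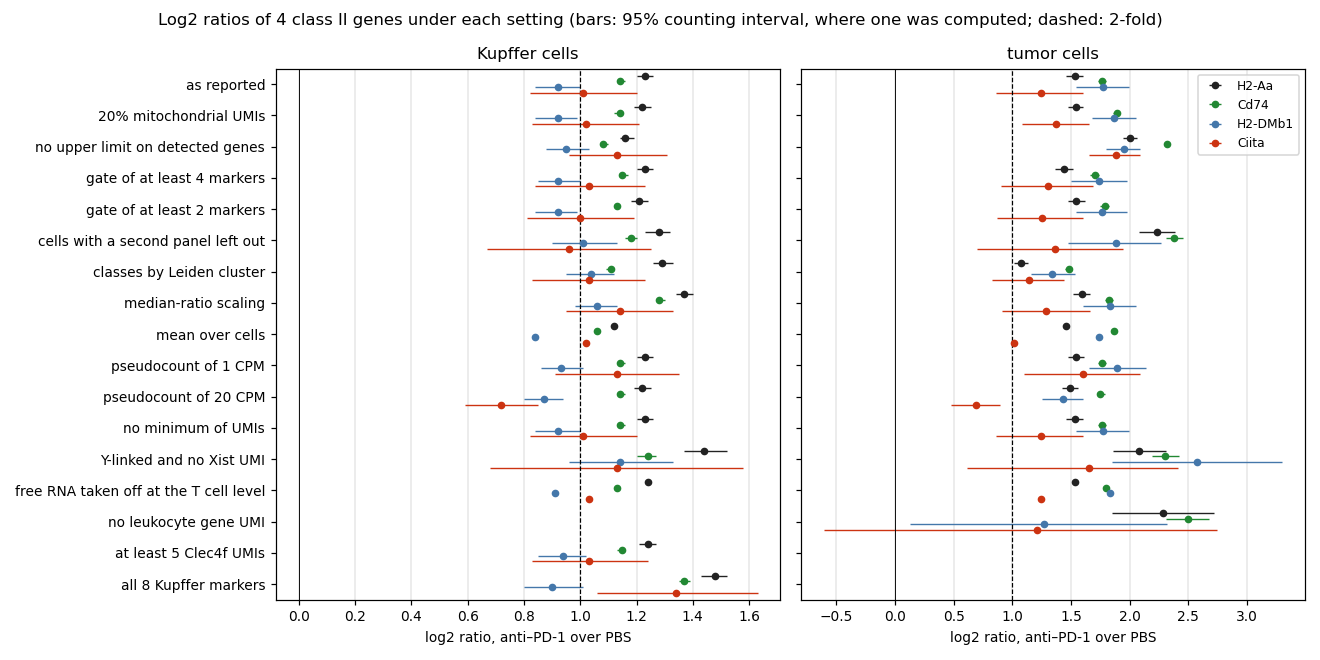
Log2 ratio (anti–PD-1 over PBS) of H2-Aa, Cd74, H2-DMb1 and Ciita in Kupffer cells (left) and tumor cells (right) as reported and under each alternative, with 95% counting intervals where one was computed. H2-Aa stays between 1.12 and 1.48 in Kupffer cells and between 1.07 and 2.28 in tumor cells.

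Of the stromal classes, endothelial cells had higher class II levels with anti–PD-1, and the difference in fibroblasts depended on which cells were counted. Levels of both were close to those of T cells. In endothelial cells H2-Aa was 261 and 606 CPM (1.20, 1.00 to 1.39), Cd74 was 756 and 1919 (1.34, 1.23 to 1.45) and H2-DMb1 was 17.5 and 78.7 (1.89, 1.33 to 2.44). The anti–PD-1 class had 100 cells, and the 6 leukocyte genes were at 993 and 1557 CPM. Per cell, endothelial class II UMIs were 7.98 and 19.4. With the T cell level taken off, Cd74 had no UMIs left in PBS endothelial cells and 5.08% left in those with anti–PD-1, and 3 of 4 class II genes were 2-fold higher (5.54% of all genes). In the 35 and 44 endothelial cells that carried a Y-linked UMI but none of Xist, H2-Aa was at −0.47 and none of the 6 class II genes tested was 2-fold higher (6.69% of all genes). In fibroblasts H2-Aa was 292 and 339 CPM (0.21, 0.02 to 0.40), Cd74 was 990.4 and 1250.4 (0.33, 0.23 to 0.44), and the leukocyte genes were at 1350.2 and 1333 CPM. Per cell the fibroblast class II UMIs were 10.3 and 12.2, against 7.53 and 16.6 in T cells, and the top 5% of fibroblasts held 62.4% and 26.0% of them. In the 279 and 75 fibroblasts free of a second marker panel, H2-Aa was at 1.79 (1.39 to 2.19), Cd74 at 1.76 (1.55 to 1.96) and the 6 class II genes with enough UMIs were at least 2-fold higher, against 5.80% of all genes in these cells. Among the 35 and 82 that carried a Y-linked UMI but none of Xist, H2-Aa was at 1.12 (0.52 to 1.77) and 4 of 5 genes were (10.4%). With the T cell level taken off, H2-Aa and Cd74 had no UMIs left in anti–PD-1 fibroblasts.

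In the ratio of a pair of class II genes within a class, the depth of the cells cancels. H2-Ab1 over H2-Aa UMIs was 0.782 in B cells of the PBS and 0.778 in those of the anti–PD-1 library, 0.904 and 0.937 in macrophages, and 0.953 (0.909 to 0.998) and 0.941 (0.912 to 0.970) in T cells. PBS tumor cells stood apart at 1.22 (1.16 to 1.28), with 1.07 (1.02 to 1.12) in the anti–PD-1 library, and plasma cells at 2.29 and 1.78. Plasma cells, which shut off class II as they differentiate from B cells, also had 16.9 and 12.8 Cd74 UMIs per H2-Aa UMI, where every other class had 2.40 to 4.91.

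The ratio of Cd74 to H2-Aa was higher in the anti–PD-1 library in every class other than Kupffer cells and plasma cells, with overlapping intervals in pDCs, fibroblasts and endothelial cells. Cd74 over H2-Aa was 2.59 (2.56 to 2.62) and 3.01 (2.96 to 3.05) in cDC2, 2.40 (2.29 to 2.51) and 3.42 (3.27 to 3.58) in mature dendritic cells, 3.82 and 4.20 in B cells, 3.45 and 4.08 in macrophages and 3.37 and 4.15 in monocytes. T cells, too, had 3.53 and 4.03. Kupffer cells went slightly the other way, with 4.45 (4.36 to 4.54) and 4.18 (4.14 to 4.22), as did plasma cells. H2-DMb1 over H2-DMa likewise stood at 0.525 and 0.649 in Kupffer cells, 0.528 and 0.603 in macrophages and 0.435 and 0.583 in cDC2, each with intervals that do not overlap. PBS T cells had the lowest value, 0.206 (0.176 to 0.239).

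**Figure D5:**
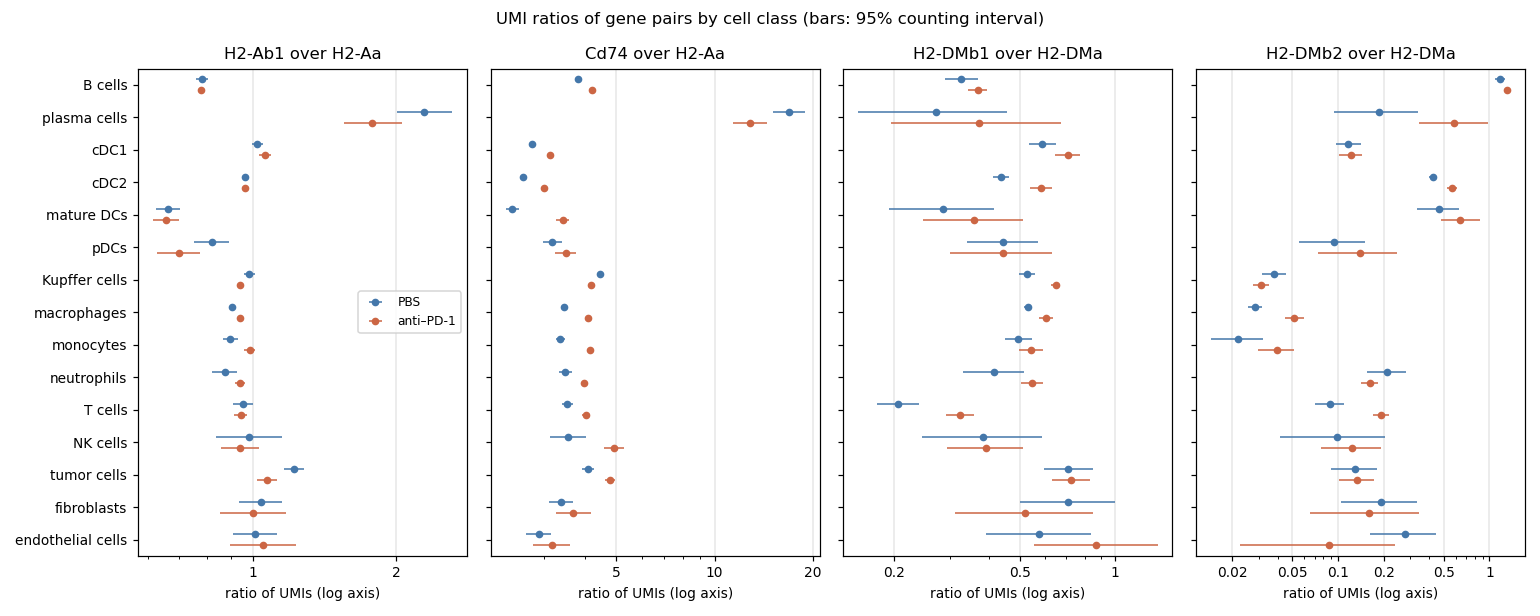
Ratios of UMIs (log axis) of 4 pairs of class II genes in 15 cell classes of the PBS (blue) and anti–PD-1 (orange) libraries with 95% counting intervals. PBS tumor cells lie at 1.22 for H2-Ab1 over H2-Aa against 0.953 in T cells, and H2-DMb2 over H2-DMa falls from 1.17 in B cells to 0.0282 in macrophages.

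H2-DMb2, H2-Oa and H2-Ob separated B cells and cDC2 from the macrophage lineage far more than the anti–PD-1 library differed from the PBS library. H2-DMb2, which encodes a second H2-M β chain, was 541 and 668 CPM in B cells and 550.1 and 521 in cDC2, but 16.2 and 33.9 in macrophages and 13.5 and 17.2 in Kupffer cells. Its UMIs per H2-DMa UMI were 1.17 (1.08 to 1.27) in PBS B cells and 0.424 (0.399 to 0.449) in PBS cDC2, but 0.117 in cDC1 and 0.0282 (0.0254 to 0.0313) in macrophages. The longest coding transcripts of H2-DMb1 and H2-DMb2 are 69.1% identical over an alignment of both, and how the counting assigned reads shared by similar genes is not stated. H2-Ob, the β chain of the DM inhibitor, was 521 and 527 CPM in B cells (0.02, −0.08 to 0.11), and H2-Oa, its α chain, was 225 and 275 (0.29). The ratio of H2-Ob to H2-Oa UMIs was 2.32 (2.10 to 2.57) in PBS B cells and 0.358 (0.320 to 0.400) in PBS cDC2. In macrophages and Kupffer cells H2-Oa and H2-Ob did not exceed 20.1 CPM, and PBS T cells had H2-Oa at 30.6 CPM, above PBS macrophages at 15.1.

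Across the 30 class and library sums, the genes whose log2 level followed that of H2-Ab1 most closely were other class II genes. H2-Eb1 (r = 0.990), H2-Aa (0.987), Cd74 (0.980, chromosome 18, 60803848 to 60812652), H2-DMa (0.954), Ciita (0.935) and H2-DMb1 (0.930) took the first 6 ranks of 11742 genes with at least 500 UMIs. H2-DMb2 (0.793), H2-Oa (0.766) and H2-Ob (0.664) were at ranks 34, 49 and 172. The first genes from outside the set were Fgd2 (0.912), Gm6377 (0.908), Pkib (0.908), Gm20513 (0.882) and Wdfy4 (0.881). Gm20513 is an antisense gene that overlaps H2-Eb1 in the annotation (chromosome 17, 34293073 to 34308070, reverse strand). Wdfy4, which is needed for cross-presentation, is 1 of the cDC1 markers. The sums share 2 libraries and a few lineages, so the correlations are descriptions.

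Among the other genes of the pathway, the interferon-induced transcription factor Irf1 and the class II stabiliser Cd83 differed between the libraries in many classes. Of the 7 genes of the promoter complex on which CIITA assembles (Rfx5, Rfxap, Rfxank, Nfya, Nfyb, Nfyc and Creb1), 0 of those tested were at least 2-fold higher in any of the 15 classes, and Nfya in endothelial cells was the only 1 lower (−1.03). Between 1.27% and 4.57% of all genes were higher per class and 4.52% lower in endothelial cells, so such counts are near the background. Rfx5 was 8.41 and 9.89 CPM in Kupffer cells (0.15, −0.11 to 0.41) and 12.3 and 17.8 in tumor cells (0.40, 0.01 to 0.78). Irf1, which acts at a Ciita promoter, was 106 and 428 CPM in Kupffer cells (1.96, 1.86 to 2.05), 79.4 and 312 in macrophages (1.91, 1.82 to 2.00) and 34.2 and 265 in tumor cells (2.79, 2.60 to 2.98). Irf1 was also higher in classes in which Ciita was lower. It was 105 and 178 CPM in B cells (0.73, 0.54 to 0.93), 84.8 and 219 in cDC1 (1.32, 0.96 to 1.68) and 92.8 and 190.2 in cDC2 (1.00, 0.78 to 1.22). Ciita stood at −0.42, −0.45 and −0.90 there, against 1.01 in Kupffer cells, 0.10 in macrophages and 1.24 in tumor cells. Whether Irf1 bears on the Ciita ratios was not tested. Of the interferon-γ receptor and kinase genes, Ifngr1 was at −0.43 and −0.44, Ifngr2 at −0.18 and −0.40, Jak1 at −0.26 and −0.28 and Jak2 at 0.02 and 0.22 in Kupffer cells and macrophages, and none of these was past 2-fold in tumor cells either.

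Of the 6 antigen processing enzymes, 0 differed by 2-fold in Kupffer cells, macrophages or B cells, which is near the background, since 1.67%, 2.85% and 1.63% of all genes were higher and 0.233%, 0.363% and 2.08% lower there. In cDC1 and cDC2 all 6 were lower with anti–PD-1, the lysosomal protease Ctsd past 2-fold, at 2196 and 679 CPM in cDC1 (−1.69, −1.81 to −1.56) and 489 and 223 in cDC2 (−1.11, −1.27 to −0.96), where 3.93% and 3.14% of all genes were 2-fold lower. Ctss, the protease that trims CD74 in dendritic cells and B cells, was 4444 and 4093 CPM in Kupffer cells (−0.12), 5963 and 5730.0 in macrophages (−0.06) and 1021 and 974 in B cells (−0.07). In tumor cells it was 293 and 689.9 (1.22, 1.14 to 1.31), the only 1 of 6 genes past 2-fold there, where 3.03% of all genes were higher. The 6 leukocyte genes stood at 1149 and 2494 CPM in the same cells. How far Ctss UMIs of other cells make up this value was not tested. Ifi30, the lysosomal thiol reductase, was at 0.10 in Kupffer cells, −0.16 in macrophages, −0.47 in B cells and 0.48 in tumor cells. Cd83, which protects class II from ubiquitin ligases, was 1 of 3 surface turnover genes and was higher in Kupffer cells (187 and 577 CPM, 1.60), macrophages (202 and 648, 1.66), B cells (188 and 764, 2.00), cDC2 (118 and 674, 2.47) and tumor cells (13 and 85.4, 2.33). The ligases March1 and March8 passed 2-fold in none of these classes. March1 fell just short in cDC2, at 147 and 72.1 CPM (−0.98, −1.25 to −0.72), and was lower in B cells too (−0.68, −0.81 to −0.55). Of the class II receptors Cd4 and Lag3, neither was 2-fold higher in T cells. H2-Eb2, the only further class II chain gene compared, was 2-fold higher in cDC2 (1.41) of the 8 classes in which it was tested.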

How the data were processed

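Single-cell RNA-Seq libraries of tumor-bearing livers (Singleron GEXSCOPE kit V2) were measured, 1 per group, grouped by the labels. As deposited, the authors' matrices hold unnormalized UMI counts for each gene and barcode, made with the Singleron software against mm10. Its version and its handling of strand and of shared reads are not given in the sources used here. The submitters' processing notes also name Seurat 4.3. Members and lists were chosen with earlier results of these data known. All 10 members were named in every class, pathway genes by a difference of at least 2-fold in tumor cells, macrophages or B cells (Irf1, Ctss, Ifi30 and Rfx5 in any case), other genes as the 5 most correlated with H2-Ab1. Further genes, and Cd83 and Irf1 in further classes, were named after their values were seen. Results for 1 gene of the pathway lists are not reported here.

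Cells were filtered by the study's limits. Gating, sums and intervals used Python 3.11.15, numpy 2.4.6 and scipy 1.17.1. A cell joined the class with most of its 8 markers (at least 3, ties left out). Cells with at least 3 Kupffer markers and a Clec4f UMI were called Kupffer cells before macrophages or monocytes, and no cell with a Clec4f UMI was called a macrophage. Ratios are of CPM + 5 with exact conditional intervals, CPM carry exact Poisson and shares Clopper-Pearson intervals at 95%. No doublet caller was run, and cells with at least 3 markers of a second, unrelated class were left out in an alternative. The T cell level taken off is the mean of UMIs per T cell of the same library, mixed barcodes included, so it can exceed the level of free RNA. With PBS, T cells also held more H2-DMa and H2-Oa UMIs each than NK cells did. The 17 alternatives (clusters with leidenalg 0.10.2) comprise 14 planned ones and 3 for Kupffer cells and macrophages added after the data were seen. Of the gene identifiers, 32445 (99.6%) were found in GENCODE vM21. The ratio was tested on simulated data.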

Additional observations from a re-analysis of the deposited data

Results flagged for a closer look

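For 7 of the 10 class II genes, the anti–PD-1 library was at least 2-fold higher in 1 cell class. In another class the same gene was lower, with a counting interval below 0. The share of all genes that meet this rule in any pair of classes was not computed. The count of 7 therefore does not set the class II genes apart from other genes. The log2 ratios of H2-Aa were 1.53 in tumor cells and −0.21 in cDC2, those of H2-Ab1 1.34 in tumor cells and −0.20 in cDC2, and those of H2-Eb1 1.27 in tumor cells and −0.32 in cDC1. H2-DMa had 1.78 in tumor cells and −0.55 in pDCs, and H2-DMb1 had 1.89 in endothelial cells and −0.54 in pDCs. H2-Ob had 1.15 in NK cells (0.29 to 1.59, on 2 and 23 UMIs) and −0.62 in cDC1, and Ciita had 1.48 in endothelial cells and −2.37 in pDCs (−3.44 to −0.90, on 23 and 2 UMIs). Several of these values did not hold under the alternatives. H2-Ob had 0 UMIs left in NK cells of both libraries once the T cell level was taken off, and with mixed barcodes left out it was at −0.06 (−0.50 to 0.37) in cDC1. H2-DMb1 was at 0.22 (−0.77 to 1.25) in endothelial cells with a Y-linked UMI but none of Xist, and at −0.62 (−1.29 to 0.02) in pDCs with mixed barcodes left out, where Ciita was at −1.57 (−3.04 to 0.17). In cDC2, H2-Aa and H2-Ab1 were at 0.02 with median-ratio scaling. In tumor cells H2-Eb1 was at 0.92 with clusters and H2-DMa at 0.99 (−0.32 to 2.18) without a leukocyte gene UMI, and in endothelial cells Ciita was at 0.76 with a pseudocount of 20 CPM. The differences between classes were not tested, since each group is 1 library. The values of pDCs and endothelial cells rest on few cells (79 and 51, and 522 and 100).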

How the results depend on the processing

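No paired analysis was possible because each group is 1 library. Of 1773 ratios of single class II genes recomputed under the alternatives, 1304 stayed within the counting interval of the value reported, 437 moved outside it, and 32 reversed a direction whose interval had excluded 0. Of 202 counts of genes past 2-fold, over all 15 classes, 160 stayed within 1.5 times. The number of class II genes tested and the share of all genes past 2-fold can change with the alternative too. Tumor cells without a leukocyte gene UMI had 5 of 6 tested genes higher (6.05% of all genes), against 8 of 10 (3.03%) as reported. Endothelial cells with the T cell level taken off had 3 of 4 (5.54%), against 6 of 9 (3.43%). A count given below without such a share does not set the class II genes apart from other genes. In B cells, cDC1, cDC2 and pDCs the count higher stayed at 0 throughout, and in Kupffer cells it lay between 4 and 6. Counts higher moved in macrophages from 0 to 1 (mixed barcodes left out, median-ratio scaling, mean over cells, pseudocount of 1 CPM), in monocytes from 6 to 3 (pseudocount of 20 CPM, T cell level taken off) and 0 (Y-linked but no Xist UMI), in endothelial cells from 6 to 3 (clusters, T cell level taken off) and 0 (Y-linked), and in tumor cells from 8 to 5 (no leukocyte gene UMI). In neutrophils it moved from 4 to 1 (mixed barcodes left out, clusters), 2 (Y-linked) and 7 (median-ratio scaling), and in fibroblasts from 0 to 6 (mixed barcodes left out), 4 (Y-linked) and 3 (mean over cells). In T cells it moved from 1 to 0 (no upper limit on detected genes, gate of 2 markers, mixed barcodes left out, clusters, mean over cells, pseudocount of 20 CPM), 2 (pseudocount of 1 CPM), 3 (median-ratio scaling) and 6 (Y-linked), and in NK cells from 2 to 1 (gate of 4 markers, mean over cells, pseudocount of 20 CPM), 0 (mixed barcodes left out, clusters, T cell level taken off) and 5 (Y-linked). In mature dendritic cells it moved from 1 to 0 (no upper limit, mixed barcodes left out, pseudocount of 20 CPM) and 2 (T cell level taken off), and in plasma cells from 1 to 0 (median-ratio scaling, pseudocount of 20 CPM). The count lower in pDCs moved from 1 to 0 with mixed barcodes left out (Ciita at −1.57, under 20 UMIs) or the T cell level taken off (at most 3 UMIs left). The cause of the other changes was not tested.

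Directions reversed as follows. Among cells that carried a Y-linked UMI but none of Xist, endothelial cells (35 and 44) had H2-Aa at −0.47, H2-Ab1 at −0.39, H2-Eb1 at −0.85, Cd74 at −0.17 and H2-DMa at −0.39, B cells H2-Aa at −0.03 and H2-Eb1 at −0.14, neutrophils H2-DMb2 at −0.61, macrophages H2-Ob at −0.18 and T cells H2-Oa at 0.20. With mixed barcodes left out, H2-Ab1 was 0.02 in cDC1 and 0.12 in mature dendritic cells, where H2-Aa was 0.03. With clusters, NK cells had H2-Aa at −0.11, H2-Ab1 at −0.09 and H2-Eb1 at −0.15, fibroblasts H2-Aa at −0.17 and pDCs H2-Ab1 at 0.02. With median-ratio scaling, H2-Aa and H2-Ab1 were 0.02 in cDC2 and H2-Aa was 0.01 in mature dendritic cells. With the mean over cells, mature dendritic cells had H2-Aa at 0.07 and H2-Ab1 at 0.02, macrophages H2-DMa at −0.03 and H2-Eb1 at −0.02. With the T cell level taken off, H2-DMb2 was −0.27 in Kupffer cells and −1.29 in neutrophils. There, genes left with at most 3 UMIs in a library got no ratio, and in the other alternatives genes with at most 3 in both. Without an upper limit on detected genes, H2-Aa was −0.01 in fibroblasts. With macrophages and Kupffer cells as 1 class, H2-Aa was −0.10, H2-Ab1 −0.06, H2-Eb1 −0.30 and H2-Oa −0.10.

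The leukocyte-free alternative gave no value in fibroblasts and endothelial cells, of which 13 and 10 anti–PD-1 cells remained. Shares of cells with an H2-Aa UMI depend on the depth thinned to, with 44.8% at 1000 and 59.1% at 2000 UMIs in anti–PD-1 tumor cells against 24.3% and 39.7% in T cells.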
